A study of Mus musculus with 8 samples.

Results

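The interferon-stimulated genes of mouse kidney cortex were followed across 4 libraries from Sav1-/- mice and 4 libraries from Sav1+/+ mice. Members were taken by gene symbol from the 21705 rows of the deposited expression table. The symbol families Ifi, Ifih, Ifit and Ifitm, Oas, Irf, Gbp, Irgm, Mx and Isg gave 60 rows, and a list of 19 further symbols gave 18 rows, 78 genes in all. The listed gene Tgtp1 had no row under that symbol and is not analysed here. Of the 78 genes, 66 averaged at least 10 across the 8 libraries and were tested, and 12 did not.

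The Sav1-/- mice had received tamoxifen and the Sav1+/+ mice vehicle. Both groups were of mixed background strain, and the tissue was the kidney cortex. Sav1 encodes salvador, a scaffold of the Hippo kinases that restrain the co-activators YAP and TAZ, and the series asked what its loss does to the cortex. The driver of the tamoxifen-dependent deletion, the age of the mice and whether each library came from 1 animal are not given in the labels.

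Interferons bind receptors at the cell surface, and the receptors' JAK kinases then phosphorylate STAT transcription factors. A complex of STAT proteins with IRF9 binds the interferon-stimulated response element of target promoters, while STAT dimers, the main signal of interferon gamma, bind the gamma-activated site. The targets include sensors of foreign RNA and DNA, enzymes and membrane proteins that block viruses, and GTPases that attack the vacuoles of intracellular microbes. In kidney, tubule cells, endothelium and resident or infiltrating leukocytes can all express these genes.

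The response element is shown for the 6 genes with the smallest p among those that rose in Sav1-/- cortex and hold it before their start, because these are the letters that the STAT and IRF9 complex is known to bind. It was searched as GAAA, any 2 bases and GAAA again, on either strand, in RefSeq promoter windows of 250 bases before to 50 bases after each start (GRCm38.p6). Capitals mark every match, each sequence reads 5′ to 3′ along the gene's own strand, and a match written as TTTC lies on the opposite strand.
Ifitm2, chr7:140955978-140956027, minus strand: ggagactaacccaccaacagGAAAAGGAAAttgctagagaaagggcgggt
Ifit3, chr19:34583353-34583436, plus strand: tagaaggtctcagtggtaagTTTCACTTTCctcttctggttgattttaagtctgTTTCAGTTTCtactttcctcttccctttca
Bst2, chr8:71537567-71537622, minus strand: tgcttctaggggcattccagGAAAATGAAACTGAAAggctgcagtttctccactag
Gbp3, chr3:142559979-142560034, plus strand: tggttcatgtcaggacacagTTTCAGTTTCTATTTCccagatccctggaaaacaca
Gbp2, chr3:142620584-142620633, plus strand: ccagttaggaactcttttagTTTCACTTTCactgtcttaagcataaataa
Tgtp2, chr11:49064253-49064302, minus strand: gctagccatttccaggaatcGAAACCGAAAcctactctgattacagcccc
Each of these stretches lies upstream of the gene's annotated start. Ifit3, Bst2 and Gbp3 held 2 matches each, which overlapped in Bst2 and Gbp3, and Ifitm2, Gbp2 and Tgtp2 held 1.

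Across the family, 54 of the 78 genes had a promoter window under their symbol, and 25 of these 54 (46.3%) held the element, against 3.99% of the 27025 genes of the promoter table. Among the genes that rose, 23 of the 40 with a window held it (57.5%), and among tested genes not called, 1 of 5 did. By role, the element was found in 8 of 9 interferon-inducible GTPases with a window, 4 of 5 sensors and 11 of 24 antiviral effectors. It was found in 1 of 8 interferon regulatory factors, 1 of 3 genes of the Isg15 and ADP-ribose or ubiquitin enzymes, and 0 of 5 remaining genes. Neither of the 2 windows of genes that fell, Irf5 and Cmpk2, held the letters. The gamma-activated site, searched as TTCNNNGAA, was found in 17 of the 54 genes (31.5%), against 9.55% of all genes. It can overlap the response element, and a match of either kind is a description of the letters and not a measured binding site.

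The interferon-stimulated genes were higher in Sav1-/- cortex as a family. Of the 66 tested genes, 56 rose and 3 fell in the Sav1-/- libraries (limma, Benjamini-Hochberg adjusted p under 0.05 over all tested genes), and 7 were not called. The background was high: 43.9% of all 13677 tested genes were called higher and 25.2% lower. The median log2 fold change of the 66 genes was 1.62, against 0.23 for all tested genes, and 44 genes were called at least 2-fold higher, against 23.1% of all tested genes. In 54 genes each Sav1-/- library lay above each Sav1+/+ library, against 41.0% of all tested genes, and in 3 genes each lay below, against 24.1%. Of the 66 genes, 4 (Mx1, Mx2, Oas1g and Oas3) averaged below 10 in Sav1+/+ cortex and passed the filter through their Sav1-/- values.

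**Figure D1:**
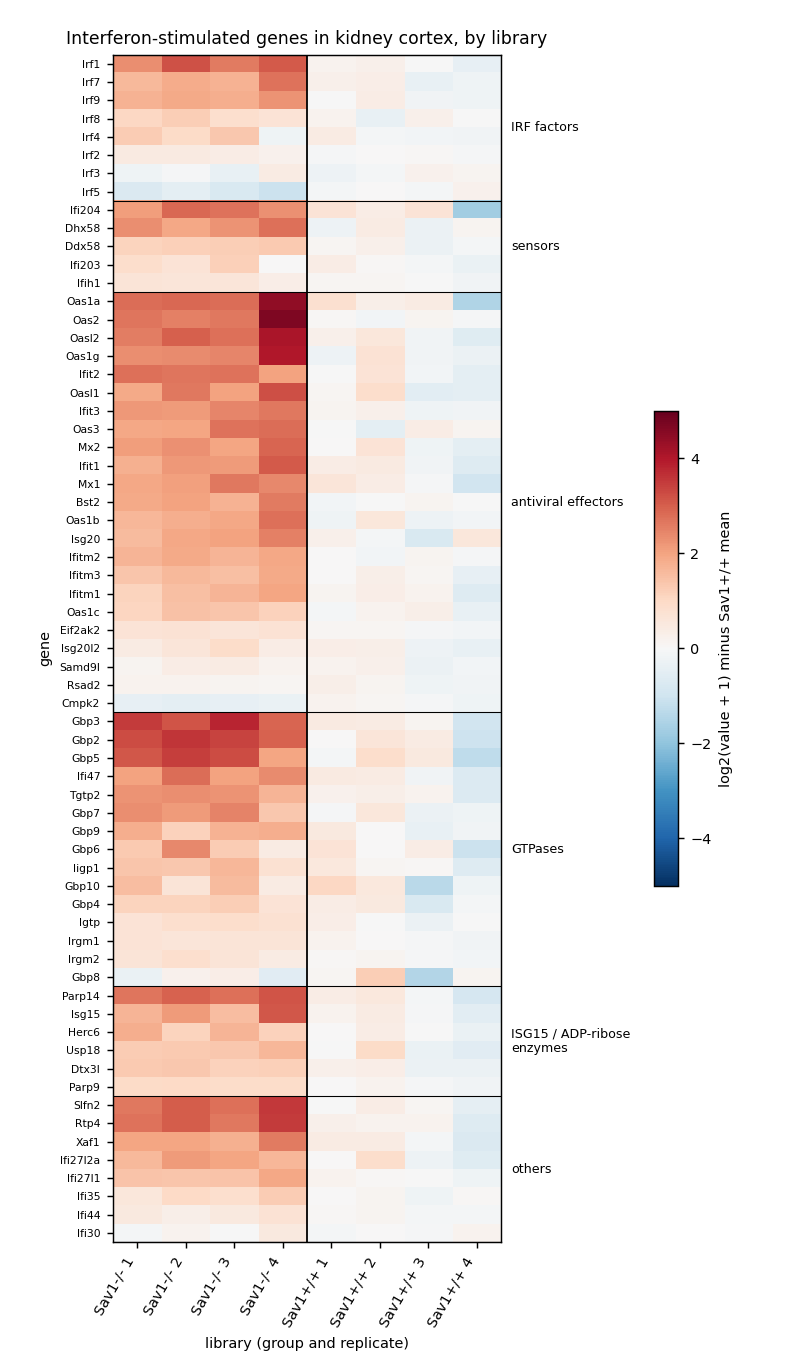
Each row is 1 of 65 tested genes, ordered by role, and each column is 1 library, with the 4 Sav1-/- libraries on the left and the 4 Sav1+/+ libraries on the right; colour gives log2(value + 1) minus the Sav1+/+ mean of that gene. Red fills most of the Sav1-/- side, while Irf5 and Cmpk2 are blue there, and Sav1-/- replicate 4 holds the darkest cells in the Oas genes and paler cells in most Gbp genes.

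The libraries held about 15700000 to 20900000 reads in the Sav1-/- group and 20500000 to 25000000 in the Sav1+/+ group. Sav1 itself was at 983, 914, 982 and 714 in the Sav1-/- libraries and at 1504, 1743, 959 and 1193 in the Sav1+/+ libraries, so 1 Sav1+/+ library lay within the Sav1-/- range. Xist was read in each Sav1-/- library and had 1 read in the Sav1+/+ group, and the Y-linked genes Ddx3y, Eif2s3y, Kdm5d and Uty were read in the Sav1+/+ libraries with no read in the Sav1-/- group. Genotype, tamoxifen and sex-chromosome transcripts separate the same libraries and cannot be told apart. The column names of both groups end in the same set of S-numbers, and only those of the Sav1-/- group carry a prefix. Whether this marks separate preparation or sequencing of the groups was not tested, and it would separate the same libraries. Most tested markers of leukocytes moved in the same direction as the interferon-stimulated genes. As a background to the marker counts, 43.9% of all tested genes were called higher and 25.2% lower. All 11 macrophage markers in the table rose, with a summed value of 8582 to 11772 in Sav1-/- libraries and 1207 to 2157 in Sav1+/+ libraries. Of 12 T and NK cell markers 8 were tested and 8 rose, with sums of 424 to 545 in Sav1-/- and 122 to 171 in Sav1+/+ libraries. Cd3d, Cd3e, Cd3g, Cd4 and Nkg7 averaged below 10 in Sav1+/+ cortex and passed the filter through their Sav1-/- values. Of the untested markers, Cd2, Klrb1c and Gzmb had more reads in the Sav1-/- group, and Ncr1 had fewer (3 against 10). Of the markers shared by leukocytes 5 of 5 rose, with sums of 2552 to 3319 in Sav1-/- and 417 to 657 in Sav1+/+ libraries. Of the neutrophil markers 2 of 4 tested rose, while Elane was at 0 in each library and Mpo at 0 in the Sav1-/- group. These 4 tested neutrophil markers averaged below 10 in Sav1+/+ cortex and passed the filter through their Sav1-/- values. Of the B cell markers 1 was tested and rose. Of 8 endothelial markers 1 fell, Kdr, and 7 were not called. All 8 proximal tubule markers fell, with sums of 37077 to 82882 in Sav1-/- and 339077 to 384025 in Sav1+/+ libraries. The part of these markers in the results below was not tested, and in bulk tissue more or fewer cells of a type and more or less RNA per cell cannot be told apart.

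Values per library are deposited normalized values in the order of replicates 1 to 4, and fold changes are antilogs of differences on the log2(value + 1) scale. Counts by role stand beside 43.9% of all tested genes called higher and 25.2% lower. The interferon regulatory factors are transcription factors that read and pass on interferon and sensor signals. Irf1, Irf2, Irf7, Irf8 and Irf9 rose, Irf5 fell, and Irf3 and Irf4 were not called. Irf1, an early target of interferon gamma and itself an activator of GTPase promoters, had 727, 1321, 886 and 1227 in the Sav1-/- libraries, against 162, 175, 144 and 108 in the Sav1+/+ libraries. Each Sav1-/- value was more than 4 times the highest Sav1+/+ value, with replicates 2 and 4 above the others. The difference was 6.92-fold (log2 fold change 2.79 ± 0.22, SE, limma adjusted p = 5.69e-06). Irf9, the DNA-binding partner of STAT factors, had 859.7, 965, 915 and 1216 in Sav1-/- and 254, 333, 227 and 223 in Sav1+/+ libraries, a 3.82-fold rise with no overlap (limma adjusted p = 6.65e-06). Irf7, the amplifier of type I interferon production, had 358, 418, 386 and 769 in Sav1-/- libraries, against 136, 145, 89.0 and 99.0 in Sav1+/+ libraries. Its 3.98-fold rise (limma adjusted p = 0.000113) had no overlap, and Sav1-/- replicate 4 stood well above the other Sav1-/- libraries.

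The myeloid and lymphoid factor Irf8 had 314, 362, 273 and 244 in Sav1-/- and 171, 118, 183 and 149.5 in Sav1+/+ libraries, a 1.92-fold rise (limma adjusted p = 0.000982). Irf2, which shares binding sites with Irf1 and can oppose it, had 514, 510.3, 483 and 432 in Sav1-/- and 363, 384, 393 and 363 in Sav1+/+ libraries. Neither gene's groups overlapped, but the 1.29-fold rise of Irf2 (limma adjusted p = 0.00454) was the smallest of the family, and its call was lost under median-of-ratios rescaling (log2 fold change 0.14) and quantile normalization (0.11). Irf5, which passes on Toll-like receptor signals in myeloid cells, fell: it had 282, 330.0, 273 and 218 in Sav1-/- libraries, against 433, 465, 429 and 534 in Sav1+/+ libraries. The groups did not overlap, and the log2 fold change of -0.76 ± 0.14 (limma adjusted p = 0.000842) stayed below 0 and called in each of the 18 alternatives run.

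Irf3 and Irf4 were not called, and their groups overlapped. Irf3, the constitutive factor that sensors activate by phosphorylation, had 937, 1043, 834 and 1424 in Sav1-/- and 916, 1000.2, 1237 and 1192 in Sav1+/+ libraries, a log2 fold change of -0.05 ± 0.17 (limma adjusted p = 0.784). Its sign depended on the scaling, with 0.33 at equal library totals and -0.28 under median-of-ratios rescaling, neither called. Irf4, a factor of activated lymphocytes and some myeloid cells, had 60.1, 48.9, 64.0 and 20.7 in Sav1-/- and 32.6, 22.6, 22.0 and 21.6 in Sav1+/+ libraries. Sav1-/- replicate 4 lay at the bottom of both groups while the other Sav1-/- libraries lay above all Sav1+/+ libraries. The log2 fold change was 0.84 ± 0.36 (limma adjusted p = 0.0585), and without that library it was 1.20 and called (limma adjusted p = 0.00108). Under quantile normalization it was -0.24 and not called, and at equal library totals it was 1.21 and called (limma adjusted p = 0.00899).

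All 5 tested sensors of foreign nucleic acid rose, against 43.9% of all tested genes, with a median log2 fold change of 1.20. Ddx58 encodes RIG-I, which detects short double-stranded RNA ends. It had 1436, 1504, 1547 and 1658 in Sav1-/- libraries and 722, 792, 547 and 627 in Sav1+/+ libraries, a 2.30-fold rise (limma adjusted p = 1.88e-05). Ifih1 encodes MDA5, the sensor of long double-stranded RNA, and had 631, 621, 605 and 507 in Sav1-/- and 429.8, 427, 396 and 359.8 in Sav1+/+ libraries. Its rise was 1.46-fold (limma adjusted p = 0.00103), and neither gene's groups overlapped. Dhx58, the regulatory relative LGP2, had 87.5, 66.5, 83.7 and 119 in Sav1-/- libraries and 13.6, 22.6, 13.4 and 18.6 in Sav1+/+ libraries, a log2 fold change of 2.32 (limma adjusted p = 3.64e-05).

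The other two tested sensors belong to the p200 family of DNA-binding proteins. Ifi204, a mouse relative of the DNA sensor IFI16, had 57.8, 97.8, 88.5 and 65.7 in Sav1-/- and 20.9, 16.8, 21.1 and 3.09 in Sav1+/+ libraries, a 5.61-fold rise without overlap (limma adjusted p = 0.00206). Ifi203 had 166, 142, 204 and 89.6 in Sav1-/- and 115, 93, 82.3 and 69.1 in Sav1+/+ libraries, and Sav1-/- replicate 4 lay inside the Sav1+/+ range. Its 1.62-fold rise passed the threshold (limma adjusted p = 0.0368), but the call was lost without any of 6 of the 8 libraries in turn (limma adjusted p from 0.0608 to 0.0982) and under median-of-ratios rescaling (0.47), and the log2 fold change turned to -0.05 under quantile normalization. Ifi205, of the same family, was below the filter, with 80 reads in the Sav1-/- group and 7 in the Sav1+/+ group, and Ifi202b was listed at 0 in each library.

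The antiviral effectors act on viral RNA, entry or budding. Of 23 tested, 20 rose, 1 fell and 2 were not called, with a median log2 fold change of 2.06, and 18 were called at least 2-fold higher, against the same 23.1% of all tested genes. Ifitm2, a membrane protein that blocks fusion of enveloped viruses in endosomes, had the smallest p of the family: 1694, 1945, 1717 and 2034 in Sav1-/- libraries, against 535, 482, 579.9 and 507 in Sav1+/+ libraries. The groups were tight and far apart, and the rise was 3.51-fold (log2 fold change 1.81 ± 0.09, limma adjusted p = 8.29e-07). Ifitm3, its close relative, had 849, 1001, 942 and 1232 in Sav1-/- and 334, 397, 348 and 248 in Sav1+/+ libraries, a 3.04-fold rise (limma adjusted p = 2.3e-05). Ifitm1 had 29.7, 39.1, 45.0 and 55.1 in Sav1-/- and 14.5, 16.8, 15.3 and 8.25 in Sav1+/+ libraries, a 2.96-fold rise (limma adjusted p = 0.00107) that was not called under quantile normalization (log2 fold change 0.44). Bst2, the tetherin that holds budding virions at the cell surface, had 543, 585, 487 and 896 in Sav1-/- and 134, 144, 162 and 144 in Sav1+/+ libraries. It rose 4.16-fold without overlap (limma adjusted p = 1.06e-05), with Sav1-/- replicate 4 the highest.

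The Ifit proteins bind viral RNA and hinder its translation, and all 3 rose with log2 fold changes from 2.27 to 2.54. Ifit3 had 312, 303, 380.0 and 430.1 in Sav1-/- and 74.4, 81.3, 59.3 and 60.8 in Sav1+/+ libraries, a 5.10-fold rise (limma adjusted p = 3.32e-06). Ifit2 had 681, 640.3, 658 and 409 in Sav1-/- and 97.9, 160.0, 90.0 and 71.1 in Sav1+/+ libraries, a 5.80-fold rise (limma adjusted p = 2.36e-05). Ifit1 had 136, 179, 175 and 332 in Sav1-/- and 51.7, 53.6, 34.5 and 24.7 in Sav1+/+ libraries. Sav1-/- replicate 4 was the lowest of its group for Ifit2 and the highest for Ifit1 and Ifit3, and no group overlapped its counterpart.

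Some Oas proteins are 2-5A synthetases, which make the oligoadenylates that switch on RNase L. All 8 tested Oas genes rose without overlap, with a median log2 fold change of 2.61 and a range from 1.26 (Oas1c) to 3.23 (Oas1a). Of all tested genes, 43.9% were called higher and 41.0% lay higher without overlap. Oas1a had 80.4, 83.1, 79.0 and 253 in Sav1-/- libraries, against 19.0, 13.4, 14.3 and 3.09 in Sav1+/+ libraries, a log2 fold change of 3.23 ± 0.55 (limma adjusted p = 0.000625). Oas2 had 88.2, 78.2, 85.3 and 358 in Sav1-/- and 13.6, 11.7, 14.3 and 12.4 in Sav1+/+ libraries, a log2 fold change of 3.12 ± 0.45 (limma adjusted p = 0.000216). In both genes 3 Sav1-/- libraries agreed closely and replicate 4 was more than 3 times as high. Oas1a, Oas1b, Oas1c and Oas1g are paralogs, and RSEM divides reads that fit several of them by estimate, so the values of single copies can be uncertain. Mx1 and Mx2, dynamin-like GTPases that trap viral capsids, rose with log2 fold changes of 2.25 and 2.31. Both, like Oas1g and Oas3 among the Oas genes, passed the filter through their Sav1-/- values. Eif2ak2, the kinase PKR that stops translation on double-stranded RNA, had 621, 633, 578 and 633 in Sav1-/- and 404, 415, 370.3 and 346 in Sav1+/+ libraries, a 1.61-fold rise (limma adjusted p = 9.69e-05).

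Isg20, an exonuclease that degrades viral RNA, had 42.2, 54.7, 56.9 and 82.7 in Sav1-/- and 16.3, 12.6, 7.66 and 20.6 in Sav1+/+ libraries. It rose 4.04-fold without overlap (limma adjusted p = 0.000463), and the call was lost under quantile normalization (limma adjusted p = 0.0528). Isg20l2, a nucleolar exonuclease of ribosome maturation that shares the symbol and the fold of Isg20, had 561, 629.5, 779 and 546 in Sav1-/- and 522, 509, 351 and 324 in Sav1+/+ libraries. The groups only just separated, at 1.49-fold (limma adjusted p = 0.0191), and the call was lost without Sav1-/- replicate 3, Sav1+/+ replicate 3 or Sav1+/+ replicate 4 (limma adjusted p from 0.0517 to 0.0555) and under 2 of the 3 other scalings.

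A pair of neighbouring antiviral genes on chromosome 12 did not follow the rest. Rsad2 encodes viperin, which makes a chain-terminating nucleotide, and Cmpk2, the kinase that supplies its substrate, is the adjacent protein-coding gene. Rsad2 had 152, 152, 148 and 145 in Sav1-/- and 165, 147, 117 and 119 in Sav1+/+ libraries, a log2 fold change of 0.13 ± 0.14 (limma adjusted p = 0.415). The Sav1-/- values lay inside the Sav1+/+ range, and the sign followed the scaling: it was called lower under quantile normalization (-0.52, limma adjusted p = 0.00553) and called higher at equal library totals (0.52, limma adjusted p = 0.008). Cmpk2 had 120.2, 114, 121 and 126 in Sav1-/- and 179, 172, 151 and 138 in Sav1+/+ libraries. It fell by 0.40 on the log2 scale with no overlap (limma adjusted p = 0.0167), but the call was lost without Sav1+/+ replicate 1 (-0.35, limma adjusted p = 0.054) and was also lost at equal library totals (-0.02). The Rsad2 promoter window held the response element. Samd9l, an antiviral and growth-restraining factor, had 4107, 4887, 4898 and 4169 in Sav1-/- and 4175, 4483, 3082 and 3356 in Sav1+/+ libraries. These overlapped, the log2 fold change of 0.27 ± 0.13 was not called (limma adjusted p = 0.0928), and without Sav1+/+ replicate 2 it was 0.36 and called (limma adjusted p = 0.0352). It was also called higher under quantile normalization (0.65, limma adjusted p = 0.00197) and at equal library totals (0.65, limma adjusted p = 0.00102), and was 0.05 under median-of-ratios rescaling (limma adjusted p = 0.753).

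**Figure D2:**
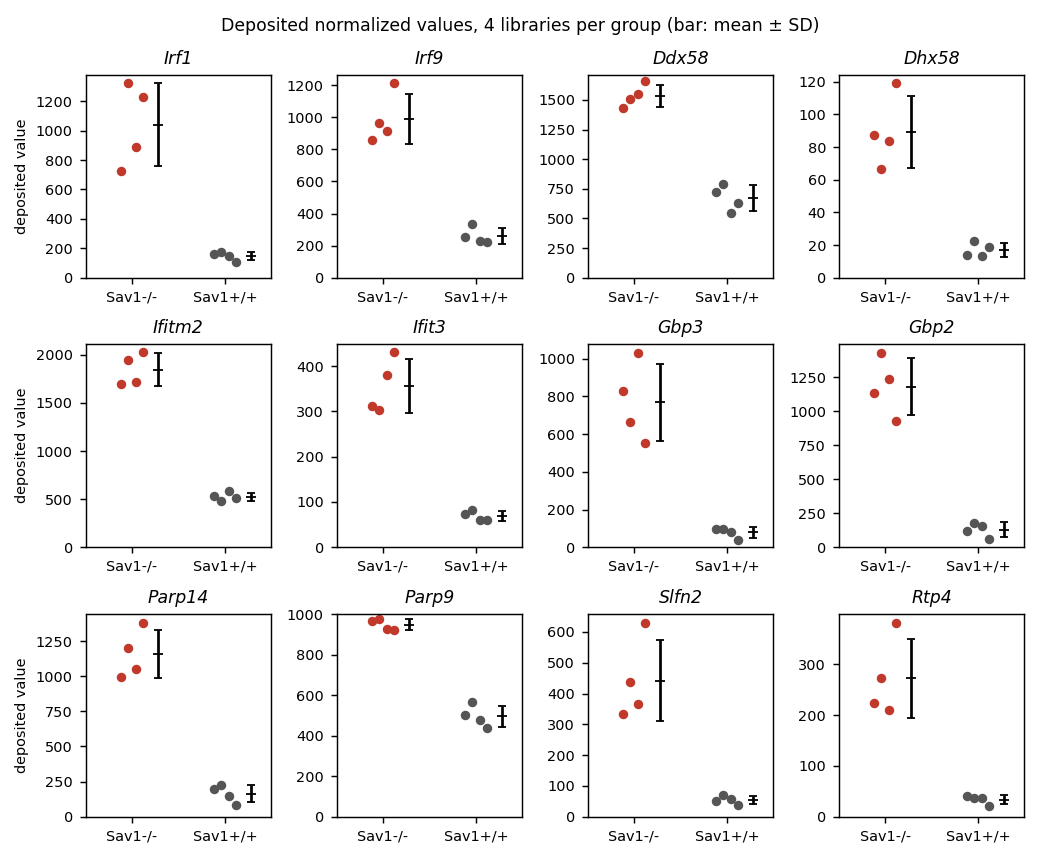
Deposited normalized values (vertical axes from 0, 1 panel per gene) of 12 genes, the 2 from each role with the smallest p, in the 4 Sav1-/- libraries on the left and the 4 Sav1+/+ libraries on the right of each panel, with points in replicate order and bars for mean ± SD. In each panel the lowest Sav1-/- point lies above the highest Sav1+/+ point, as for Irf1 (727 against 175) and Gbp3 (554 against 98.8).

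The interferon-inducible GTPases assemble on pathogen vacuoles and membranes. Of 15 tested, 13 rose, against 43.9% of all tested genes, and 2 were not called, with a median log2 fold change of 1.35. The guanylate-binding proteins Gbp3 and Gbp2 showed the highest fold changes of the whole family. Gbp3 had 826, 662, 1028 and 554 in Sav1-/- libraries, against 98.8, 96.3, 80.4 and 37.1 in Sav1+/+ libraries, a 10.1-fold rise (log2 fold change 3.34 ± 0.32, limma adjusted p = 1.74e-05). Gbp2 had 1134, 1425, 1236 and 927 in Sav1-/- and 122, 180.1, 156 and 57.7 in Sav1+/+ libraries, a 9.76-fold rise (limma adjusted p = 1.92e-05). For both genes replicate 4 was the lowest library of its group on either side. Gbp7 had 604, 526, 672 and 305 in Sav1-/- and 114, 174, 97.6 and 102 in Sav1+/+ libraries, a 4.23-fold rise (limma adjusted p = 0.000105). Gbp5, which promotes inflammasome activity, had 212, 267, 238 and 94.5 in Sav1-/- and 21.8, 44.4, 33.5 and 9.28 in Sav1+/+ libraries, a 7.72-fold rise (limma adjusted p = 0.000469). Its fold was 12.4 without Sav1+/+ replicates 2 and 3, the Sav1+/+ libraries with the highest Havcr1, a tubule injury marker (an alternative chosen after seeing the data).

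Of the other 5 tested Gbp genes, 3 rose and 2 were not called. Gbp9 rose 3.10-fold (limma adjusted p = 0.000187). Gbp4 had 82.0, 82.1, 90.1 and 62.0 in Sav1-/- and 49.9, 52.8, 22.0 and 35.0 in Sav1+/+ libraries, a 2.04-fold rise (limma adjusted p = 0.00904) that was not called under quantile normalization (log2 fold change 0.07). Gbp6 had 81.6, 173, 80.2 and 43.1 in Sav1-/- and 52.0, 33.1, 42.1 and 14.8 in Sav1+/+ libraries. The groups overlapped at Sav1-/- replicate 4, and the 2.54-fold rise (limma adjusted p = 0.0281) was lost without any of 4 libraries in turn (Sav1-/- replicate 1 or 2, Sav1+/+ replicate 2 or 4, limma adjusted p from 0.0516 to 0.0766), under median-of-ratios rescaling (limma adjusted p = 0.0521) and under quantile normalization (log2 fold change 0.38). Gbp10 had 269, 146, 275 and 123 in Sav1-/- and 191, 132, 35.4 and 80.0 in Sav1+/+ libraries, which overlapped (log2 fold change 1.05 ± 0.49, limma adjusted p = 0.0848). It was called without Sav1-/- replicate 4 (limma adjusted p = 0.0484) or without Sav1+/+ replicate 1 (limma adjusted p = 0.0285). It was also called at equal library totals (1.43, limma adjusted p = 0.0212), and was 0.38 under quantile normalization (limma adjusted p = 0.497). Gbp8 had 44.5, 65.5, 71.9 and 38.4 in Sav1-/- and 60.8, 134, 20.1 and 62.9 in Sav1+/+ libraries, with no call (log2 fold change -0.09 ± 0.50, limma adjusted p = 0.877). The Sav1-/- values of Gbp8 lay wholly inside the wide Sav1+/+ range, and its sign turned to 0.28 at equal library totals. Gbp6, Gbp8, Gbp9 and Gbp10 are close paralogs, so any division of reads among them is uncertain.

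The smaller immunity-related GTPases, of the p47 type, all rose: 6 of 6, with a median log2 fold change of 1.04 and no overlap. Across all tested genes 43.9% were called higher and 41.0% lay higher without overlap. Tgtp2 had 1102, 1189.6, 1117 and 764 in Sav1-/- libraries, against 272, 291, 266 and 144 in Sav1+/+ libraries, a 4.37-fold rise (limma adjusted p = 3.85e-05), with the reservation that Tgtp1 is a near-identical copy. Ifi47 had 225, 389, 227 and 284 in Sav1-/- and 75.3, 72.9, 48.8 and 34.0 in Sav1+/+ libraries, a 4.91-fold rise (limma adjusted p = 7.79e-05). The regulators Irgm1 and Irgm2, which keep the effector GTPases off the cell's own membranes, rose 1.56-fold each, and Igtp, of the same regulatory class, rose 1.73-fold. Irgm1 showed the narrow spread of these 3, with 1761, 1688, 1722 and 1718 in Sav1-/- and 1255, 1130.1, 1068 and 973 in Sav1+/+ libraries. Iigp1, an effector that coats vacuoles, rose 2.45-fold (limma adjusted p = 0.00189).

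Isg15 and the enzymes grouped with it attach or remove ubiquitin-like tags and ADP-ribose, and 6 of 6 rose without overlap. The shares over all tested genes were 43.9% called higher and 41.0% higher without overlap. Isg15, the ubiquitin-like modifier, had 85.9, 116, 77.4 and 229 in Sav1-/- and 29.0, 34.4, 24.9 and 17.5 in Sav1+/+ libraries, a 4.36-fold rise (limma adjusted p = 0.000516). Herc6, the ligase that attaches Isg15 in mice, had 337, 209, 313 and 216 in Sav1-/- and 96.2, 124, 93.8 and 75.4 in Sav1+/+ libraries, a 2.72-fold rise (limma adjusted p = 0.000216). Usp18, which removes Isg15 and restrains the type I interferon receptor, had 54.7, 55.7, 58.5 and 72.8 in Sav1-/- and 21.8, 43.6, 17.2 and 14.4 in Sav1+/+ libraries. Its 2.64-fold rise (limma adjusted p = 0.00363) was not called under quantile normalization (log2 fold change 0.31). Parp14, a mono-ADP-ribosyltransferase of macrophages and lymphocytes among other cells, had 996, 1201, 1050.0 and 1381 in Sav1-/- and 198, 225, 146 and 86.6 in Sav1+/+ libraries, a 7.41-fold rise (limma adjusted p = 1.54e-05). Parp9, another ADP-ribosyltransferase, works with the ubiquitin ligase Dtx3l. Parp9 had 965, 975, 928 and 924 in Sav1-/- and 503, 564, 478 and 440.3 in Sav1+/+ libraries, a 1.92-fold rise (limma adjusted p = 1.61e-05). Dtx3l had 616, 631, 554 and 574 in Sav1-/- and 301, 311, 203 and 203 in Sav1+/+ libraries, a 2.38-fold rise (limma adjusted p = 9.94e-05).

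Of the 8 remaining tested genes, 7 rose, against 43.9% of all tested genes, and 1 was not called. Slfn2, a schlafen that keeps T cells and monocytes quiescent, had 334, 438, 366 and 629.9 in Sav1-/- and 52.6, 69.5, 56.5 and 38.1 in Sav1+/+ libraries, a 7.96-fold rise (limma adjusted p = 6.37e-06). Rtp4, a receptor transporter that restrains interferon responses, had 223, 273, 211 and 382 in Sav1-/- and 39.9, 37.7, 37.3 and 20.6 in Sav1+/+ libraries, a 7.85-fold rise (limma adjusted p = 1.09e-05). Sav1-/- replicate 4 was the highest and Sav1+/+ replicate 4 the lowest library for both genes. Xaf1, a pro-apoptotic zinc finger protein, had 151, 150.5, 131 and 235 in Sav1-/- and 49.9, 50.3, 35.4 and 22.7 in Sav1+/+ libraries, a 4.23-fold rise (limma adjusted p = 0.000159). Ifi27l1 had 1576, 1542, 1556 and 2246 in Sav1-/- and 659, 609, 579.9 and 504 in Sav1+/+ libraries, a 2.91-fold rise (limma adjusted p = 1.22e-05). Ifi27l1 and its relative Ifi27l2a, which rose 3.59-fold, encode small membrane proteins. Ifi35, a leucine zipper protein, had 455, 608, 541 and 728 in Sav1-/- and 307, 336, 261 and 313 in Sav1+/+ libraries, a 1.89-fold rise (limma adjusted p = 0.000429).

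Ifi44 and Ifi30 were at the low end of this group. Ifi44, a cytoplasmic interferon-induced protein, had 134, 115, 134 and 158 in Sav1-/- and 98.8, 103, 88.0 and 88.7 in Sav1+/+ libraries. Its 1.42-fold rise (limma adjusted p = 0.00952) had no overlap, but was not called under median-of-ratios rescaling (log2 fold change 0.28) and turned to -0.25 under quantile normalization (limma adjusted p = 0.182). Ifi30, the lysosomal thiol reductase of antigen processing, had 1278, 1549, 1353 and 1925 in Sav1-/- and 1267, 1369.6, 1312 and 1531 in Sav1+/+ libraries. The groups overlapped, and the log2 fold change of 0.14 ± 0.13 was not called (limma adjusted p = 0.351). It was called higher at equal library totals (0.53, limma adjusted p = 0.00636) and was -0.08, not called, under median-of-ratios rescaling.

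The 12 genes below the filter were of low or no expression. Oas1d, Oas1f and Ifi202b were listed at 0 in each library, and Oas1e and Oas1h had at most 1 read in a group. Ifitm5 had 13 and Ifitm6 17 reads in the Sav1-/- group, against 6 each in the Sav1+/+ group, and Gbp11 had 7 against 6. Ifitm7 had 27 reads in the Sav1-/- group and 1 in the Sav1+/+ group, Ifi27l2b had 32 in Sav1-/- and 1 in Sav1+/+, and Gbp1 had 48 in Sav1-/- and 9 in Sav1+/+.

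The direction of the family held under other scalings, and the count of calls did not stay fixed. Against 56 higher and 3 lower as deposited, 51 and 3 were called under median-of-ratios rescaling, 48 and 4 under quantile normalization, and 61 and 1 at equal library totals. The median of all tested genes shifted by -0.22, -0.25 and 0.38 on the log2 scale under these scalings, and 63.5% of all calls were higher as deposited, against 49.9%, 48.8% and 81.7%. Relative to that all-gene median, the family's median lay 1.39 higher as deposited, under median-of-ratios rescaling and at equal totals, and 0.95 higher under quantile normalization. The share of the family's calls that were higher was 94.9% as deposited and 94.4%, 92.3% and 98.4% under the 3 scalings. Most genes were tested in 18 alternatives. Those that a mean of at least 50 left out were tested in 17 (Ifi204, Ifitm1, Irf4, Isg20, Mx1, Mx2, Oas1b, Oas1g, Oas3 and Usp18). In each alternative that tested them, 47 of the 56 genes that rose kept direction and call. The 9 that did not were Gbp4, Gbp6, Ifi203, Ifi44, Ifitm1, Irf2, Isg20, Isg20l2 and Usp18.

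**Figure D3:**
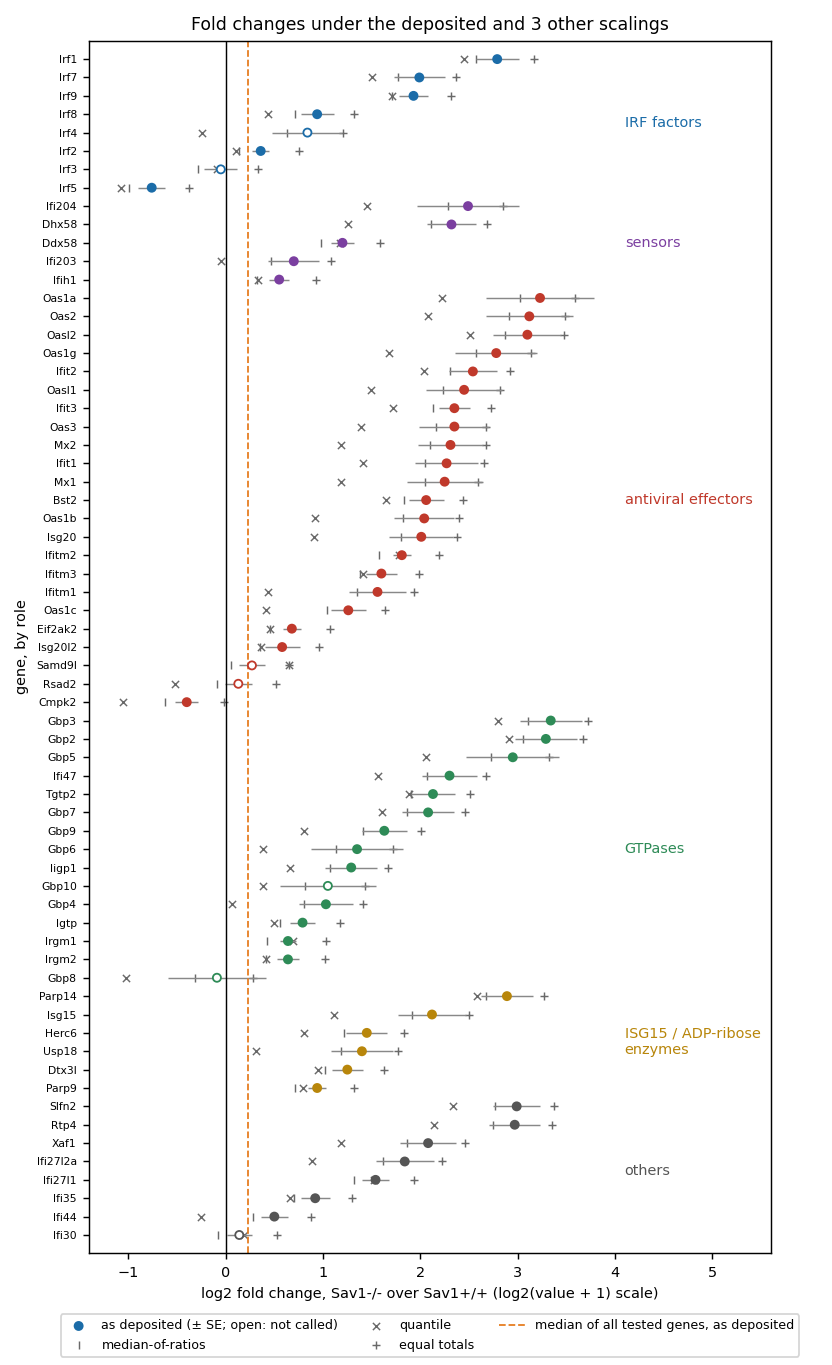
Log2 fold change, Sav1-/- over Sav1+/+, of 65 tested genes ordered by role (filled circle called, open circle not called, horizontal line ± SE), with the same value under 3 other scalings and a dashed line at the median of all tested genes, 0.23. Equal totals move the points to the right and quantile normalization moves most of them to the left, and Gbp3 (3.34) and Oas1a (3.23) stay far from 0 while Rsad2 and Ifi44 lie on both sides of it.

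Within the Sav1-/- group, replicate 4 split the family in part by role. It was the highest of the 4 Sav1-/- libraries for 16 of 23 antiviral effectors, 7 of 8 Oas genes and 7 of the 8 remaining genes, and for 0 of 15 GTPases. It was the lowest for 11 of 15 GTPases and for 3 of 23 antiviral effectors. Among the GTPases it was the lowest for 8 of 9 Gbp genes and 3 of 6 p47 genes. Over all tested genes it was the highest for 38.4% and the lowest for 42.8%. Its log2 difference from the mean of the other 3 Sav1-/- libraries had a median of 0.55 over antiviral effectors, 1.18 over Oas genes, -0.57 over GTPases and -0.62 over Gbp genes. The median was -0.16 over p47 GTPases and 0.5 over the 8 remaining genes. Oas2 was 4.27 times the mean of the other 3 libraries (358 against 83.9), and Gbp5 was 0.395 times that mean. The same library had the highest summed neutrophil markers, 517 against 40.6 to 100.3 in the other Sav1-/- libraries, the lowest endothelial sum, 1486 against 3005 to 3449, and the lowest proximal tubule sum, 37077 against 55926 to 82882. It was the lowest Sav1-/- library for 7 of 8 proximal tubule markers, with a median log2 difference of -1.08. This split was chosen for description after the values were seen, and neither it nor the part of those markers in it was tested. Without this library 58 genes of the family were called higher, and the share of all tested genes called higher was 46.5%, against 43.9% with it.

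**Figure D4:**
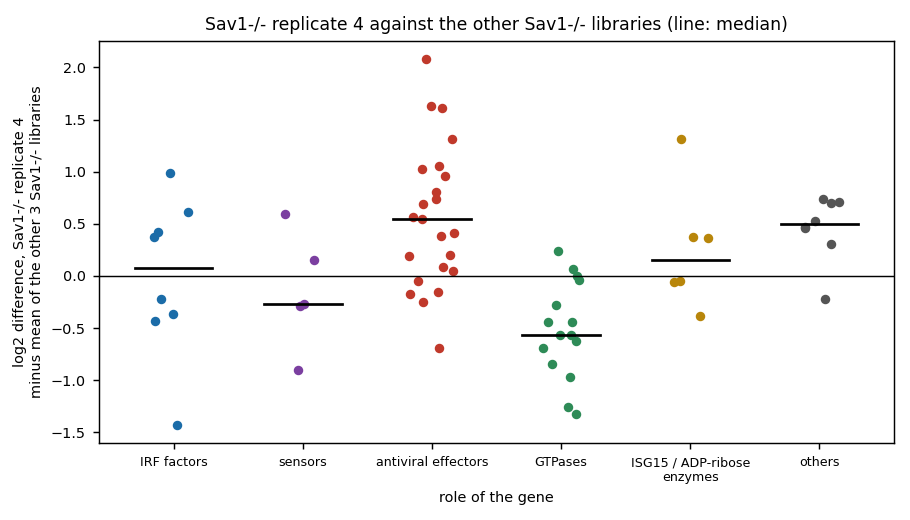
Log2 difference of Sav1-/- replicate 4 from the mean of the other 3 Sav1-/- libraries (vertical axis) for 65 tested genes, grouped by role along the horizontal axis, with a line at each role's median. Antiviral effectors lie mostly above 0 (median 0.55, Oas2 highest) and GTPases mostly below 0 (median -0.57, Gbp5 lowest).

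The ligands that start the pathway were barely read. Of 21 ligand symbols looked up, 19 had a row, 16 of these were listed at 0 in each library, and none reached the filter. Ifng, interferon gamma, had 4 reads in the Sav1-/- group, at most 2 in a library, and no read in the Sav1+/+ group. Ifnz had 2 reads in the Sav1-/- group and 1 in the Sav1+/+ group, and Ifnk had 1 read in the Sav1-/- group and 0 in the Sav1+/+ group. A count of 0 allows up to 3 reads, a value of 2.34 to 3.09 depending on the library, so low ligand expression was not detectable at this depth.

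All 6 receptor subunits rose, where 43.9% of all tested genes were called higher. Ifngr1, the ligand-binding chain of the interferon gamma receptor, had 2469, 3074, 2569 and 2863 in Sav1-/- libraries, against 728, 911, 854 and 800.0 in Sav1+/+ libraries, a log2 fold change of 1.73 ± 0.10 (limma adjusted p = 1.31e-06). Its partner Ifngr2 had a log2 fold change of 1.27, and the type I receptor chains Ifnar1 and Ifnar2 had 0.94 and 0.63. The lambda receptor chains Il28ra and Il10rb, the second of which also serves interleukin 10, had 1.53 and 0.89. Stat2 had 451, 479, 517 and 656.5 in Sav1-/- and 337, 374.5, 288 and 259 in Sav1+/+ libraries, a log2 fold change of 0.74 (limma adjusted p = 0.00192). Jak2 (0.79) and Tyk2 (0.60) rose, and Jak1 was not called (-0.07, limma adjusted p = 0.633).

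Of 8 tested negative regulators, 4 rose, 1 fell and 3 were not called. This is near the shares of all tested genes, 43.9% called higher and 25.2% lower. Socs3, the inhibitor induced mainly by STAT3-activating cytokines, had 703, 922, 709 and 1629 in Sav1-/- libraries, against 19.9, 39.4, 48.8 and 17.5 in Sav1+/+ libraries (log2 fold change 4.97, limma adjusted p = 4.99e-06). Cish (1.6), Ptpn2 (0.37) and Ptpn1 (0.34) also rose, and Pias4 fell (-0.43, groups overlapping). Socs1, the inhibitor of the interferon receptors' kinases, was below the filter, with 66 reads in the Sav1-/- group and 16 in the Sav1+/+ group.

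Sensing adaptors outside the family and further interferon targets were called in the same direction more often than not. The counts below stand beside 43.9% of all tested genes called higher and 25.2% lower. Of 17 genes of nucleic acid sensing, 13 rose, 1 fell (Trim25, -0.32) and 3 were not called. Tmem173, which encodes STING, had the highest log2 fold change among them, 3.80, with 518, 749.8, 521 and 1088 in Sav1-/- and 43.5, 67.0, 73.7 and 24.7 in Sav1+/+ libraries. Nlrc5, the activator of MHC class I genes, had 3.01. Of 64 other tested interferon targets, 50 rose, 3 fell (Parp10, -0.64, Setdb2, -0.89, and Pnpt1, -0.32) and 11 were not called, with a median of 1.55. The immunoproteasome subunit Psmb8 (2.96), the chemokine Ccl5 (3.53) and Plac8 (3.20) were among those that rose, and Ccl5 and Plac8 are also expressed by leukocytes. Over all these lists together, 72 of 95 tested genes rose and 5 fell. Some genes in these 2 lists averaged below 10 in Sav1+/+ cortex and passed the filter through their Sav1-/- values. They were Tlr8, Tlr9, Aim2, Ddx60, Mnda, Slfn1, Slfn8, Slfn9 and Ms4a4c, which rose, and Apol9a and Apol9b, which were not called. Plasmacytoid dendritic cells are the main blood source of type I interferon, and 4 of their 6 listed markers were tested. Spib (2.31) and Tcf4 (0.67) rose, and Cox6a2 (-3.71) and Klk1 (-0.75), a kallikrein that kidney tubules also make, fell. Cox6a2 passed the filter through its Sav1+/+ values. The summed value of the 6 was 18641 to 27966 in Sav1-/- and 37156 to 41529.5 in Sav1+/+ libraries. Nearly all of this sum was Klk1, at 18180 to 27338 in Sav1-/- and 36784 to 41126 in Sav1+/+ libraries, so the sum does not measure these cells. Siglech had 31 reads in the Sav1-/- group and 12 in the Sav1+/+ group, and Ccr9 had 38 reads in the Sav1-/- group and 18 in the Sav1+/+ group, both below the filter.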

How the data were processed

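The deposited table held 1 normalized value per gene and library, a signal and not counts. Per the labels' protocols, stranded mRNA libraries were made from column-purified RNA. Per the submitters' processing notes, RSEM, SAMtools and Picard 1.64 were used with build mm9. Aligner, annotation and strand setting: not given in the sources used here. The upper quartile (percentile 75) of values above 0 was 1000 in each library, 999 in 1. Low values fell on steps of 1 read (92.7% to 93.3% of values below 400 within 0.02 read of a whole number), which gave the read estimates. This share was too low for a count test. Read numbers and floors cover counting error only.

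Values were compared as log2(value + 1) with limma 3.58.1 in R 4.3.3 (intensity trend, 6 residual degrees of freedom), for 13677 genes with a mean of at least 10, adjusted by Benjamini-Hochberg over all of them and called at 0.05. The fit was tested on simulated data. Whether the 4 libraries of a group are separate animals is not stated in the labels, and the p-values cover only library-to-library spread, possibly technical. RSEM divides reads that fit several paralogs by estimate, so values of close paralogs (Oas1, Gbp, Tgtp, Ifitm) can be uncertain. Promoter windows came from RefSeq (GRCm38.p6), matched by symbol. No mm9 coordinates are given.

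The members and lists were chosen with earlier results of these data known. Values per library are given for up to 5 called genes per role and direction with the smallest p, for the Irf genes, and for genes whose call or sign changed with the scaling. Some genes that this rule selects are not reported here. Ifit1, Oas1a, Oas2, Eif2ak2, Gbp5 and Irgm1, and the values of single pathway genes other than receptors, ligands and Stat2, were chosen after their values were seen. Alternatives were pseudocounts of 0.5 and 10, no filter, a mean of at least 50, the 3 scalings, no variance trend, a replicate block, leaving out each library, and leaving out both Sav1+/+ libraries with the highest Havcr1, chosen after seeing the data.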

Additional observations from a re-analysis of the deposited data

Results flagged for a closer look

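Among the 132 groups of 4 libraries formed by the 66 tested genes, 12 held a library whose gap to the nearest other library was, as a share of the group's range, above Dixon's critical value, where chance gives about 1 in 20. Sav1-/- replicate 4 was the highest of its group in 5 of these: Oas2 at 358, Oas1a at 253, Oas1g at 138, Irf7 at 769 and Ifi27l1 at 2246. The same library was the lowest for Ifit2, at 409. Sav1-/- replicate 2 was the lowest for Gbp9, at 114. In the Sav1+/+ group, replicate 2 was the highest for Oas1g at 13.4 and for Oas1b at 20.9, and replicate 1 was the highest for Irf4 at 32.6. Sav1+/+ replicate 4 was the lowest for Tgtp2 at 144 and for Rtp4 at 20.6. The cause of these values was not tested.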

How the results depend on the processing

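The counts of genes of the family called higher stayed within 1.5 times 56 in each alternative run. Those called lower, 3 as deposited, came to 1 at equal library totals, where 1946 of all tested genes were lower. The family's median log2 fold change, 1.62, was 1.42 with a pseudocount of 10, 1.49 with a mean of at least 50, 1.40 under median-of-ratios rescaling, 0.93 under quantile normalization, 2.0 at equal totals and 1.75 without both Sav1+/+ libraries with the highest Havcr1. It ranged from 1.53 to 1.71 when a library was left out. Pathway genes called lower, 5 as deposited, numbered 11, 9 and 1 under the 3 scalings, 2 without the high-Havcr1 pair, and from 3 to 6 when a library was left out. Under quantile normalization the log2 fold changes of Ifi203 (-0.05), Ifi44 (-0.25), Irf4 (-0.24) and Rsad2 (-0.52) turned sign. The cause was not tested, and the data do not show which scaling is right.

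Replicate numbers did not pair the libraries: the correlations of same-numbered deviations were 0.144, 0.0762, -0.169 and 0.135. With a replicate block, 57 genes of the family were higher and 3 lower, and Irf4 was the named gene whose call changed. With 15700000 to 25000000 reads a library, 3 reads were worth 2.34 to 3.09, which limits the ligands and the genes below the filter.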
